A study of Mus musculus with 2 samples.

Results

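Genes that cells of many kinds switch on when histone deacetylases are blocked were followed in the liver of FVB/N mice that had received c-Myc by hydrodynamic injection, in which a large volume pushed fast into the tail vein carries DNA into hepatocytes. The set was given by name and holds 10 of the 21878 gene symbols listed: *Clu*, *Gadd45b*, *Cpt1c*, *Gsn*, *Tgm2*, *Txnip*, *Tnfrsf21*, *Syt11*, *Sncg* and *Stmn3*. The rule uses the gene names alone. PolyA RNA was sequenced from 2 liver samples, 1 per group. The untreated group carried the injected c-Myc and no treatment, and the TSA group carried the injected c-Myc and TSA, taken here as the deacetylase inhibitor trichostatin A. Age, sex, dose, time after injection and the origin of the c-Myc sequence were not given in the sources used here, nor whether tumour, whole liver or pooled animals were sampled.

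Histone deacetylases remove acetyl groups from histone tails and from other proteins, and an inhibitor lets acetylation build up at promoters. In cultured cells such drugs raise a recurrent set of transcripts, among them genes of growth arrest and stress, genes that shape the actin cytoskeleton, *Txnip*, and genes that are normally confined to neurons and held silent elsewhere by deacetylase-containing repressor complexes. Which of these genes respond differs between cell types and with dose and time.

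Total counts were 17281523 in the untreated and 17088227 in the TSA library. All 10 hepatocyte markers checked were detected in both libraries, and *Alb*, the serum albumin gene, stood at 1280 and 40496 FPKM (read counts scaled by gene length and library total, as deposited). FPKM compares genes within a library per length and is scaled to the library total. Ratios between the libraries are given as TSA over untreated after TMM scaling (a trimmed mean of M-values, which takes the bulk of genes to be equal in both libraries). Ratios under 1 are inverted and written as a fold lower. Scaling to total counts lowers every log2 ratio by 0.85, so it is printed beside TMM where it moved the call of a named gene. With 1 library per group there is no replicate check and no test. The 95% intervals in parentheses are exact binomial intervals that cover counting error only. A gene with at least 20 counts over both libraries was called if the libraries differed by 2-fold or more and the interval left out 1. In tissue, fewer cells of a type and less RNA per cell cannot be told apart.

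The genes of the set did not move in one direction. With TMM 3 were called higher in the TSA library (*Clu*, *Txnip* and *Syt11*), 2 were called lower (*Gsn* and *Cpt1c*), and 3 were neither (*Gadd45b*, *Tnfrsf21* and *Tgm2*). Over all 13027 genes tested 26.0% were called higher and 27.4% lower, and the corresponding shares of the 8 genes tested, 37.5% and 25%, lay near that background. *Sncg* and *Stmn3* had too few counts to be tested. With total counts 2 genes were higher (*Clu* and *Syt11*) and 4 lower (*Cpt1c*, *Gsn*, *Tgm2* and *Tnfrsf21*), against 16.0% higher and 48.7% lower over all genes. The median log2 ratio of the 8 genes was -0.16 with TMM beside -0.11 for all genes tested, and -1.01 beside -0.96 with total counts.

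**Figure D1:**
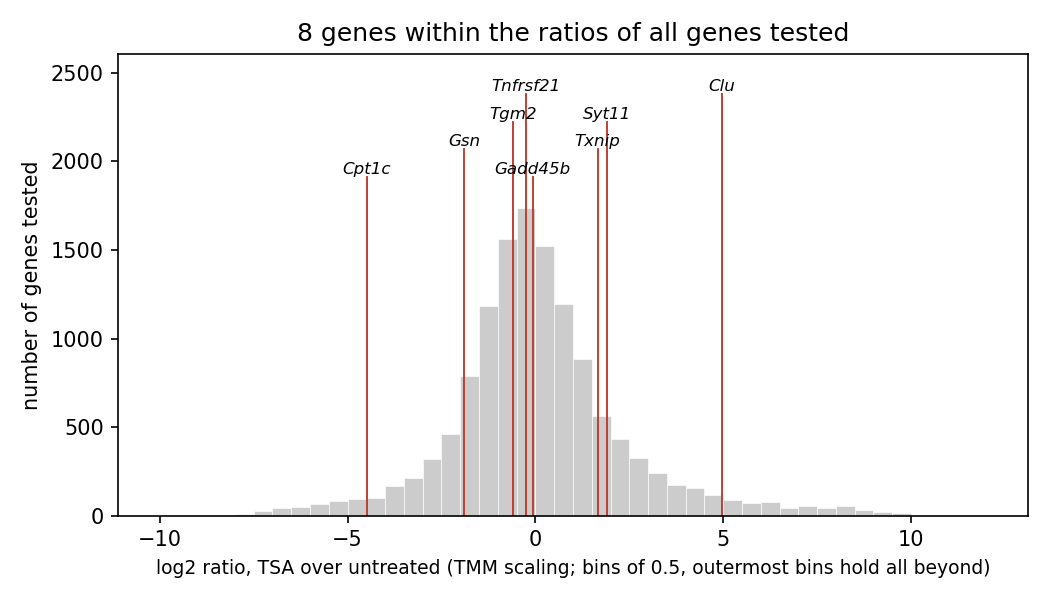
Number of genes tested (y axis) by log2 ratio of TSA over untreated with TMM scaling (x axis, bins of 0.5), with a red line at each of the 8 genes of the set that were tested. *Clu* lies far to the right and *Cpt1c* far to the left of the bulk, and *Tgm2*, *Tnfrsf21* and *Gadd45b* lie in its centre.

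Measured per length, the order of the genes changed between the libraries. Without treatment *Txnip* (150.5 FPKM), *Tgm2* (143 FPKM) and *Gsn* (88.6 FPKM) led, and *Clu* followed at 32.1 FPKM. With TSA *Clu* led at 554 FPKM, *Txnip* followed at 263 FPKM, and *Tgm2* and *Gsn* came next at 52.0 and 13.3 FPKM. *Clu* thus held 7.15% of the FPKM summed over the 10 genes without treatment and 61.8% with TSA, a comparison that no scaling factor between libraries can alter. *Cpt1c* went from place 6, at 9.63 FPKM, to place 9, at 0.239 FPKM. *Syt11*, *Sncg* and *Stmn3* stayed under 1 FPKM in both libraries.

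**Figure D2:**
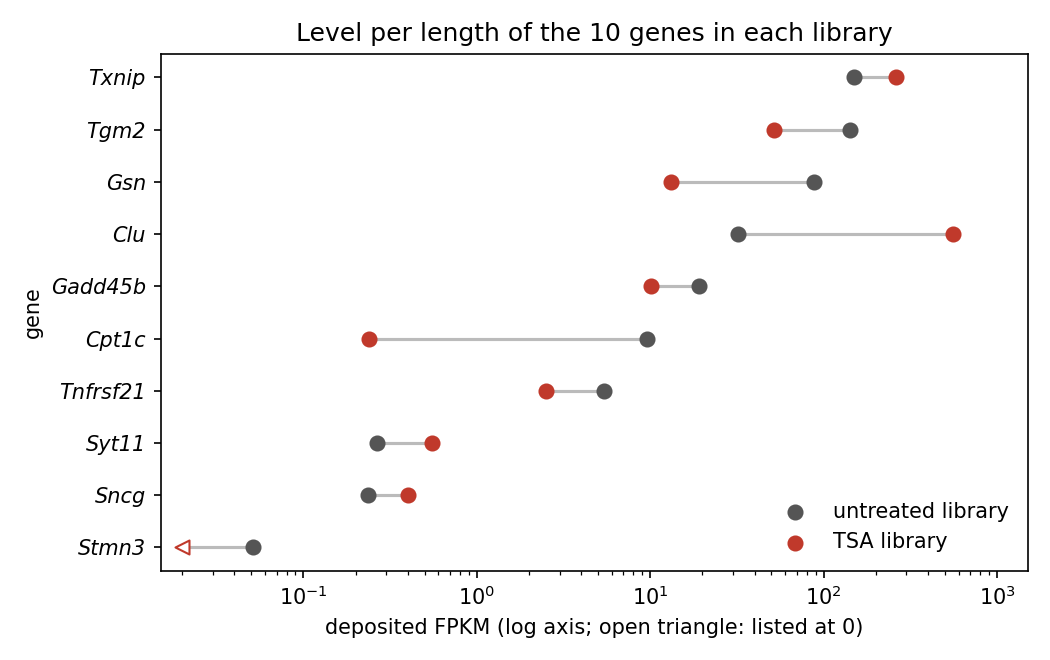
Deposited FPKM of the 10 genes (x axis, log scale) in the untreated library (grey) and the TSA library (red), 1 point per library, ordered by the untreated level. *Clu* moves from 32.1 to 554 FPKM and *Cpt1c* from 9.63 to 0.239 FPKM, and *Stmn3* is listed at 0 with TSA.

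Promoter sequences are shown for 1 gene of each behaviour and for *Syt11*, known from neurons and called higher. They are shown because part of the response to deacetylase inhibitors is known to act through GC boxes, the sites bound by factors of the SP family. The RefSeq promoter sequences used here (GRCm38.p6) had entries for 8 of the 10 genes, all but *Clu* and *Tgm2*. The 250 bases before the start are printed 5′ to 3′ on the gene's strand, in lower case. Capitals mark GC boxes (GGGCGG or its reverse complement CCGCCC) and the E-box CACGTG, a palindrome bound by MYC and MAX. The authors' build was not given in the sources used here, and the coordinates are those of RefSeq. *Txnip*, called higher, chr3:96557707-96557956, plus strand, and *Syt11*, called higher on few reads, chr3:88772600-88772849, minus strand, are shown with *Gadd45b*, neither, chr10:80929841-80930090, plus strand, and *Cpt1c*, called lower, chr7:44974852-44975101, minus strand.
Txnip: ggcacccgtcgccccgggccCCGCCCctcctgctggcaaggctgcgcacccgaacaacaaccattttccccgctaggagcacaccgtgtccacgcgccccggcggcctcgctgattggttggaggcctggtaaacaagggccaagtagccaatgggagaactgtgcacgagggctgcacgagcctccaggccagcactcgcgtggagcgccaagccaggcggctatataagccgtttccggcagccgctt
Syt11: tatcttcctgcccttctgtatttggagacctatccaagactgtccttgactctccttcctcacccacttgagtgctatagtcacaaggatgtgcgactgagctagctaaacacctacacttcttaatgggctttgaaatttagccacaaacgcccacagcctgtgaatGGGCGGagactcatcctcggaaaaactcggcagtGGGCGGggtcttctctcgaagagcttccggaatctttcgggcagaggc
Gadd45b: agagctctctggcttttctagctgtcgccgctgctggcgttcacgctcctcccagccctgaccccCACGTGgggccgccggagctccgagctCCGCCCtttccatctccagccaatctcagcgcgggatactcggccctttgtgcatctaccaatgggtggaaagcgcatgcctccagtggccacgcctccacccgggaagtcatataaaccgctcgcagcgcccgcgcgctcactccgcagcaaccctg
Cpt1c: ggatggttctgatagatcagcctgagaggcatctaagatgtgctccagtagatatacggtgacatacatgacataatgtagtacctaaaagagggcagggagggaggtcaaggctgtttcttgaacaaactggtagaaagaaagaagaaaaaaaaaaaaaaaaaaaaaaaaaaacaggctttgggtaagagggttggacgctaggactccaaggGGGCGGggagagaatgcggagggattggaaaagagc
A GC box stood in at least 1 window of 7 of the 8 genes with an entry, *Stmn3* being the exception, and in 32.7% of all 32851 promoter windows of the same length. The genes that held one included some called higher, some lower and some neither. An exact E-box (CACGTG) stood in the window of *Gadd45b* alone among the 8, and in 6.02% of all windows. Variants of these letters, which related factors can also bind, were not searched. CCAAT boxes (CCAAT or ATTGG) were found in 4 of the 8 genes, with 2 in the *Txnip* window, and in 33.8% of all windows. These are letter matches, not measured binding sites. The counts of the set are per gene, and *Gsn* has more than 1 window. The shares over all windows are per window and include genes not expressed here, so counts and shares are unlike measures.

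*Clu* codes for clusterin, a secreted chaperone that hepatocytes release into plasma. It had 1165 counts without treatment and 19896 with TSA. The TSA library was therefore the high one, by 31.2-fold (29.4 to 33.1), or 17.3-fold (16.3 to 18.3) with total counts. Its ratio lay at percentile 96.1 of all genes tested, and its FPKM rank among all listed genes went from 2475 to 108. Markers of hepatocytes were higher in the same library: all 10 passed the size rule upward with TMM, 9 of them also with total counts, and together they came to 4601 CPM (counts scaled to a common library size by TMM) without treatment and 156084 CPM with TSA. *Cyp2e1*, for the ethanol-oxidising P450, and *Alb* had the most counts among them. *Alb* was 57.1-fold (56.6 to 57.6) higher, a larger ratio than that of *Clu*. The part of hepatocyte content in the *Clu* ratio was not tested.

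*Txnip* codes for an alpha-arrestin that binds thioredoxin and curbs glucose uptake. It is transcribed under the glucose-responsive MONDO factors MLXIP (MondoA) and MLXIPL (ChREBP), which pair with MLX. It is among the transcripts first linked to deacetylase inhibitors. It had 7286 counts without treatment and 12584 with TSA. The TSA library was higher by 3.15-fold (3.06 to 3.24), which was called, and by 1.75-fold (1.70 to 1.80) with total counts, which was not. In GENCODE M21 an exon of *Txnip* overlaps the antisense gene *Gm15441*, which is not among the listed symbols. The strand setting of the counting was not given in the sources used here. Reads of that gene, where present, therefore cannot be told apart from those of *Txnip*.

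The other alpha-arrestins did not share one direction. *Arrdc3*, which helps to control surface receptors, was 5.10-fold (4.72 to 5.51) higher, from 905 to 2528 counts. *Arrdc4*, the paralog that the MONDO factors also drive, was 2.35-fold (2.09 to 2.64) lower, from 1511 to 353 counts. *Arrdc1* was 2.74-fold (1.95 to 3.93) lower, and *Arrdc2*, at 1.75-fold (1.45 to 2.11) above the untreated level with TMM and 1.03-fold (0.857 to 1.24) below it with total counts, was not called. *Txnip* and *Arrdc4* thus stood on opposite sides of the untreated level with both scalings. The window before *Arrdc4* held an exact E-box (CACGTG), and those of *Txnip* and *Arrdc3* held none. Variants of these letters were not searched, so the absence of an exact match does not show that the MONDO factors lack a site there. *Txnip* made up 76.6% of the FPKM of its family of 6 without treatment and 85.6% with TSA.

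Of the factors that act on *Txnip*, 1 was called higher and 1 lower. *Mlxipl* went from 2957 to 6767 counts and was 4.18-fold (4.0 to 4.36) higher. *Mlxip* went from 1176 to 219 counts and was 2.94-fold (2.55 to 3.41) lower. Their shared partner *Mlx*, named like *Mlxip* after its values were seen, was not called, at 898 and 865 counts. The thioredoxin genes *Txn1* and *Txn2* and the thioredoxin reductase gene *Txnrd1* were not called with TMM, with ratios between 1.12-fold (1.06 to 1.18) lower for *Txn1* and 1.19-fold (1.14 to 1.25) higher for *Txnrd1*. With total counts *Txn1* was 2.02-fold (1.91 to 2.13) lower, which passed the size rule.

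*Gsn* codes for gelsolin, which cuts and caps actin filaments and is a long-known target of trichostatin A in cultured tumour cells. In these libraries it was lower with TSA. The untreated library held 4708 counts of it and the TSA library 697, a level 3.70-fold (3.42 to 4.01) lower, or 6.68-fold (6.17 to 7.24) lower with total counts. Its FPKM rank went from 853 to 3203, and its share of the FPKM of the gelsolin family from 64.6% to 38.4%. None of the 6 family genes tested was called higher. *Vil1*, for the villin of microvilli, was 26.5-fold (13.3 to 61.8) lower, from 387 to 8 counts, and its relative *Vill* was 13.6-fold (7.02 to 30.1) lower. *Svil*, for supervillin, was 1.95-fold (1.81 to 2.11) below the untreated level and was called lower with total counts only. *Flii*, whose product also acts in transcription, was not called with either scaling, at 1148 and 1019 counts.

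*Tgm2* codes for tissue transglutaminase, which cross-links proteins and is abundant in endothelial cells as well as in injured liver. It had 8763 counts without treatment and 3153 with TSA. The TSA library was the lower one by 1.52-fold (1.46 to 1.59), short of the size rule, and by 2.75-fold (2.64 to 2.86) with total counts, which met it. *Tgm2* held 87.1% of the FPKM of the 9 transglutaminase genes without treatment and 70.4% with TSA. Its relatives lay on the other side with TMM: *Tgm1*, for the keratinocyte enzyme, was not called, with a ratio of 1.85 (1.71 to 2.01). *F13a1*, for the clotting factor XIII A chain, rested on 7 and 18 counts and was 4.69-fold (1.87 to 13.3) higher. *Rprd1b*, whose exons overlap those of *Tgm2* on the opposite strand in GENCODE M21, had 1261 and 631 counts, and reads of the overlap cannot be told apart by strand.

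Cells other than hepatocytes can supply *Gsn* and *Tgm2* transcripts, and their markers moved in part the other way. Of 9 liver endothelial markers 7 were called higher with TMM and 5 with total counts, with none lower with TMM and 1 lower with total counts, and they summed to 98.9 CPM without treatment and 524 CPM with TSA. *Stab2*, for the scavenger receptor of sinusoidal endothelium, was 18.6-fold (15.9 to 21.7) higher and *Kdr*, for a VEGF receptor, 5.10-fold (4.60 to 5.66) higher. Of 10 markers of stellate cells, fibroblasts and smooth muscle 5 were higher and 2 lower with TMM, 4 higher and 4 lower with total counts, and they summed to 439 and 624 CPM. *Col1a1*, for a chain of type I collagen, was 6.13-fold (5.42 to 6.96) lower, and *Col3a1* was not called with TMM and 2.99-fold (2.79 to 3.22) lower with total counts. Among the higher ones, named after their values were seen, *Lrat*, of vitamin A storage in stellate cells, was 22.9-fold (16.0 to 33.7) higher and *Dcn*, for decorin, 15.4-fold (13.7 to 17.3) higher. All 5 mesothelial markers were higher, on few counts, and they summed to 1.08 and 11.7 CPM. *Krt19* (9 and 54 counts) and *Msln* (8 and 28 counts) held the most. *Krt19* is also among the cholangiocyte markers below. No marker in these 3 lists was at 0 in both libraries, and *Wt1* was at 0 without treatment. Their part in the ratios of *Gsn* and *Tgm2* was not tested.

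**Figure D3:**
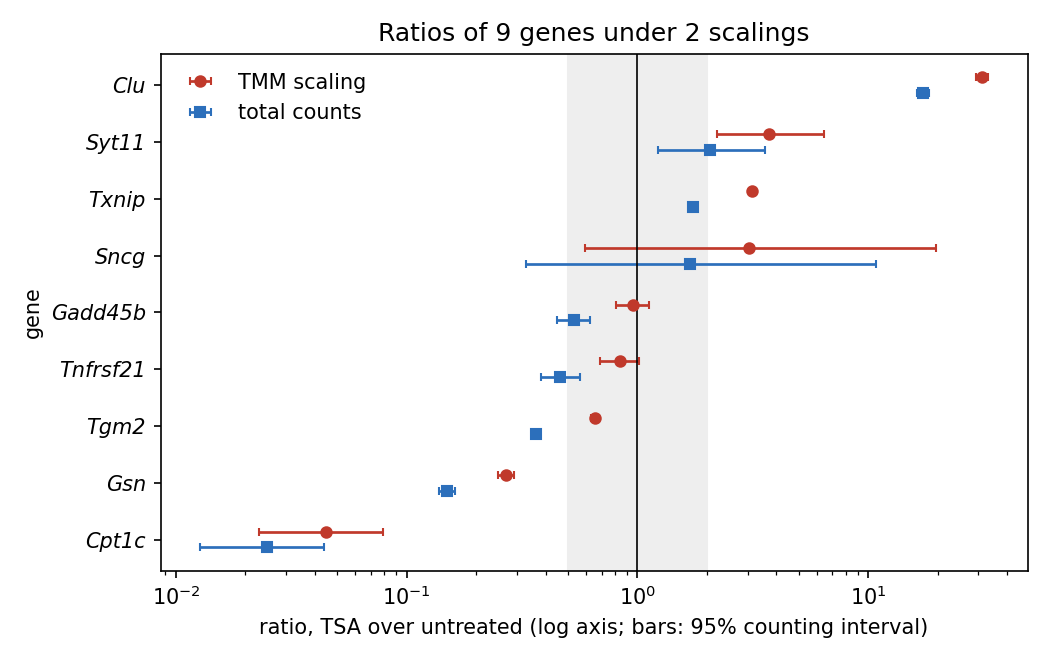
Ratio of TSA over untreated (x axis, log scale) for the 9 genes with a ratio, with TMM scaling (red circles) and with total counts (blue squares), where bars are 95% counting intervals and the grey band spans ratios under 2-fold. The ratios of *Clu* and *Syt11* lie above the band and those of *Gsn* and *Cpt1c* below it with both scalings. With TMM the intervals of *Sncg*, *Gadd45b* and *Tnfrsf21* include 1.

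*Gadd45b* codes for a small stress-induced protein that activates p38 and JNK signalling. It had 417 counts without treatment and 218 with TSA. With TMM it was 1.05-fold (0.888 to 1.24) lower, with an interval that includes 1. With total counts it was 1.89-fold (1.60 to 2.24) lower, short of the size rule. Its ratio lay at percentile 51.2 of all genes tested.

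The paralogs of *Gadd45b* behaved otherwise. *Gadd45g*, a stress and differentiation gene, had 7 counts without treatment and 2694 with TSA and was 702-fold (340.4 to 1749) higher. *Gadd45a*, the DNA damage paralog that p53 drives, went from 143 to 642 counts and was 8.19-fold (6.83 to 9.89) higher. Both were also called higher with total counts, at 389-fold (189 to 969) and 4.54-fold (3.78 to 5.48). *Gadd45b* therefore held 72.8% of the FPKM of the 3 paralogs without treatment and 5.40% with TSA. *Gadd45gip1*, which codes for a protein of mitochondrial ribosomes that binds GADD45 proteins, was 3.97-fold (3.46 to 4.57) lower. The window before *Gadd45g* held an exact E-box, as did that of *Gadd45b*, and that of *Gadd45a* held none.

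*Tnfrsf21* codes for death receptor 6. It had 338 counts without treatment and 155 with TSA. It was 1.19-fold (0.985 to 1.45) lower, not called, and 2.16-fold (1.78 to 2.62) lower with total counts, which was called. Among the other receptors with a death domain, *Fas* was 4.21-fold (3.49 to 5.11) higher and *Tnfrsf1a*, for the main TNF receptor, 2.23-fold (2.02 to 2.46) higher, the latter at 1.23-fold with total counts. *Ngfr*, for the p75 neurotrophin receptor that portal fibroblasts and stellate cells also make, was 17.3-fold (8.37 to 41.6) higher on 8 and 76 counts. *Tnfrsf10b*, for the mouse TRAIL receptor, was 8.26-fold (4.72 to 15.8) lower and *Eda2r* 14.4-fold (6.48 to 39.9) lower. Of the 7 receptors tested 3 were higher and 3 lower with TMM, the third lower one being *Tnfrsf25*, which had 27 counts without treatment and 0 with TSA. With a floor of 3 counts in place of the 0, *Tnfrsf25* was 4.93-fold (1.52 to 25.4) lower.

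*Cpt1c* codes for the brain form of carnitine palmitoyltransferase 1, which sits in the endoplasmic reticulum and has little of the enzyme activity of its liver relative. It had 490 counts without treatment and 12 with TSA. It was 22.4-fold (12.7 to 43.6) lower, or 40.4-fold (22.9 to 78.7) lower with total counts, and its ratio lay at percentile 3.02 of all genes tested. The 12 counts carry a Poisson interval of 6.20 to 21.0 counts. Its FPKM rank among all listed genes went from 5930 to 12011.

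The muscle form *Cpt1b* was lower as well, 7.21-fold (6.02 to 8.70), from 1671 to 127 counts. *Cpt1a*, the liver form that admits fatty acids to mitochondria, had 6578 and 6818 counts and was not called, with a ratio of 1.89 (1.83 to 1.96) by TMM and 1.05 (1.01 to 1.08) by total counts. *Cpt2*, of the inner membrane, was 2.36-fold (2.24 to 2.49) higher and 1.31-fold (1.24 to 1.38) with total counts, the latter not called. Of the FPKM of the 3 forms of the first step *Cpt1c* held 8.02% without treatment and 0.286% with TSA. In GENCODE M21 the antisense gene *6530437J22Rik*, not among the listed symbols, overlaps exons of *Cpt1c*.

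*Cpt1c*, the brain form described above, was called lower. The other 3 genes best known from neurons were scarce. *Syt11*, for a synaptotagmin of vesicle traffic that does not bind calcium, had 23 counts (Poisson interval 14.6 to 34.5) without treatment and 47 (34.5 to 62.5) with TSA. The TSA library was higher by 3.73-fold (2.22 to 6.43), or 2.07-fold (1.23 to 3.57) with total counts, at a level of only 0.265 and 0.548 FPKM. *Sncg*, for gamma-synuclein, had 3 and 5 counts, and its ratio of 3.04-fold (0.592 to 19.6) spans both directions. *Stmn3*, for a stathmin that loosens microtubules, had 1 and 0 counts, and no fold is given since both lie under the floor of 3 counts. The counts of *Sncg* and *Stmn3* show no difference at this depth, which could have shown only a large one.

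Their relatives split. *Syt1*, the calcium sensor of neurotransmitter release, went from 2 to 327 counts, a ratio of 298-fold (81.9 to 2474). *Syt14* had 461 and 2 counts, a ratio of 126-fold (34.8 to 1046) in the other direction, and *Syt12* was 8.31-fold (3.67 to 23.2) lower. *Syt7* was not called, at 55 and 31 counts. *Syt3* had 0 counts without treatment and 63 with TSA, and it was called higher with both scalings. Of 17 synaptotagmin genes 6 were tested, with 3 higher (*Syt1*, *Syt3* and *Syt11*) and 2 lower. *Stmn1*, the stathmin of dividing cells and the sole stathmin tested, went from 1785 to 27 counts and was 36.2-fold (24.8 to 55.1) lower. No synuclein reached 20 counts over both libraries.

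Markers of nerve cells gave no common direction. Of 10 neuronal and neuroendocrine markers 2 had enough counts, *Syt1*, higher, and *Uchl1*, with 35 counts without treatment and 0 with TSA. The list summed to 2.28 CPM without treatment and 27.3 CPM with TSA, of which *Syt1* gave 25.7 CPM. Without *Syt1* the sums were 2.20 and 1.57 CPM. The defining markers *Snap25* and *Gap43* were at 0 in both libraries. Of 6 Schwann cell markers 3 were tested, 1 of them lower (2 with total counts) and none higher, and they summed to 45.8 and 10.5 CPM. *Mbp* gave 39.6 CPM of the first sum and *Pmp22*, not called, 7.23 CPM of the second. No Schwann cell marker was at 0 in both libraries, and *Sox10* was at 0 without treatment and *S100b* with TSA.

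**Figure D4:**
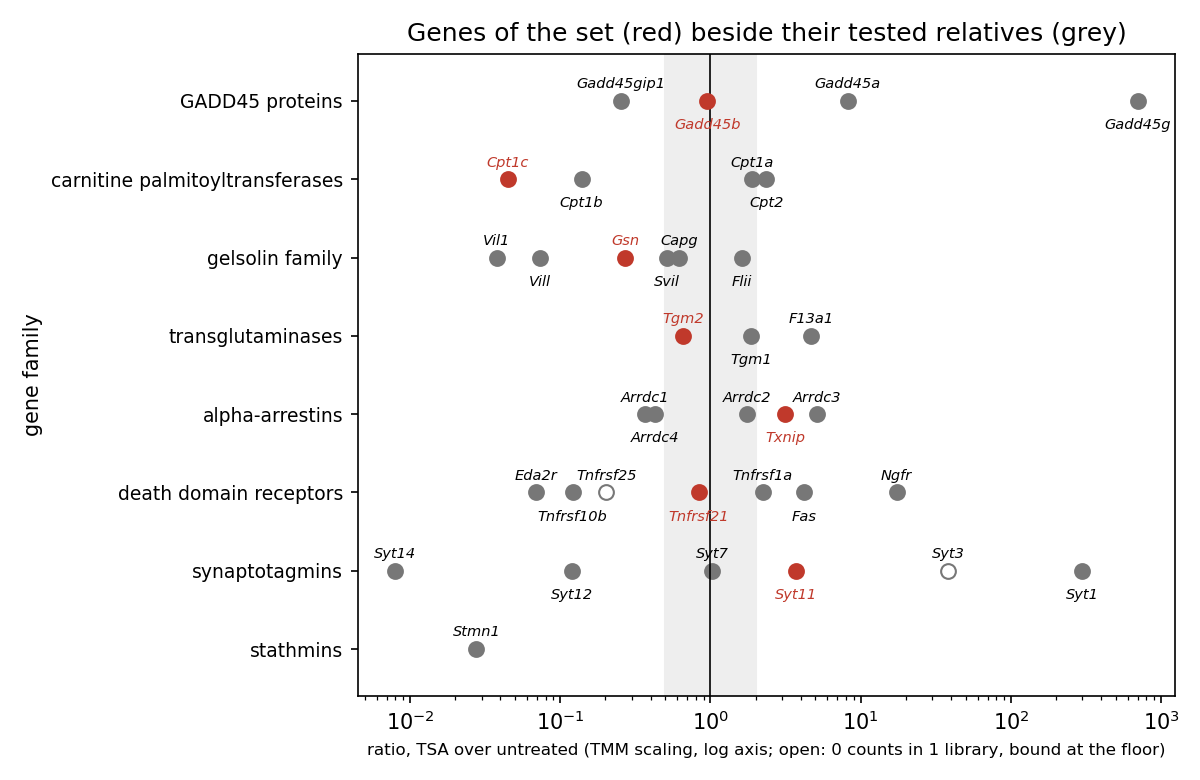
Ratio of TSA over untreated with TMM scaling (x axis, log scale) for genes of the set (red) and their tested relatives (grey) in 8 families, 1 row per family, where the grey band spans ratios under 2-fold. *Gadd45b* sits in the band beside *Gadd45a* and *Gadd45g* far to the right, and *Cpt1c* sits with *Cpt1b* to the left of *Cpt1a* and *Cpt2*.

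The wider range of genes often named as induced by these inhibitors was split as well. The 18 such genes were listed from general knowledge, with earlier results of these data known, so they are not an independent check. Of these 17 were tested, and 6 were called higher (35.3%) and 4 lower (23.5%) with TMM, beside 26.0% and 27.4% of all genes tested. With total counts 2 were higher and 4 lower, beside 16.0% and 48.7%. The median log2 ratio of the 17 was 0.22 by TMM and -0.63 by total counts, so its sign depends on the scaling.

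*Cdkn1a*, for the cell cycle inhibitor p21 and the textbook target of deacetylase inhibitors, was lower with TSA. Its counts went from 1292 to 219, which was 3.23-fold (2.80 to 3.75) lower, or 5.83-fold (5.05 to 6.76) lower with total counts. *H1f0*, for the linker histone that marks cells out of cycle and another classic target, had 3938 and 2431 counts and was not called: it was 1.13-fold (1.07 to 1.19) above the untreated level with TMM and 1.60-fold (1.52 to 1.69) below it with total counts. *Hexim1*, *Sat1*, *Rhob* and *Reck* likewise changed side with the scaling, and none of them was called with either. *Timp3*, for a metalloproteinase inhibitor, and *Thbs1*, for thrombospondin, were not called with either scaling.

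Among those called higher with TMM were the metallothionein genes, whose products bind zinc and copper. *Mt2* went from 1746 to 4231 counts and was 4.42-fold (4.18 to 4.68) higher, and *Mt1* went from 4703 to 5468 counts and was 2.12-fold (2.04 to 2.21) higher. *Tob1*, an antiproliferative gene, was 2.94-fold (2.75 to 3.15) higher, *Tgfbr2*, for a TGF-beta receptor, 2.22-fold (2.0 to 2.46), and *Klf4* 3.25-fold (1.91 to 5.68) on 23 and 41 counts. With total counts *Gadd45a* and *Mt2* alone of this list met the size rule.

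The other lower genes were *Cdh1*, for the epithelial junction protein E-cadherin, *Bmf*, for a death-promoting relative of BCL2, and *Tnfrsf10b*. *Cdh1* went from 11811 to 894 counts and was 7.24-fold (6.76 to 7.76) lower. *Bmf* went from 832 to 104 counts and was 4.38-fold (3.57 to 5.43) lower. All 4 lower genes were also called lower with total counts. *Dhrs2* had 0 counts in both libraries, with a Poisson interval of 0 to 3.69 counts in each.

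**Figure D5:**
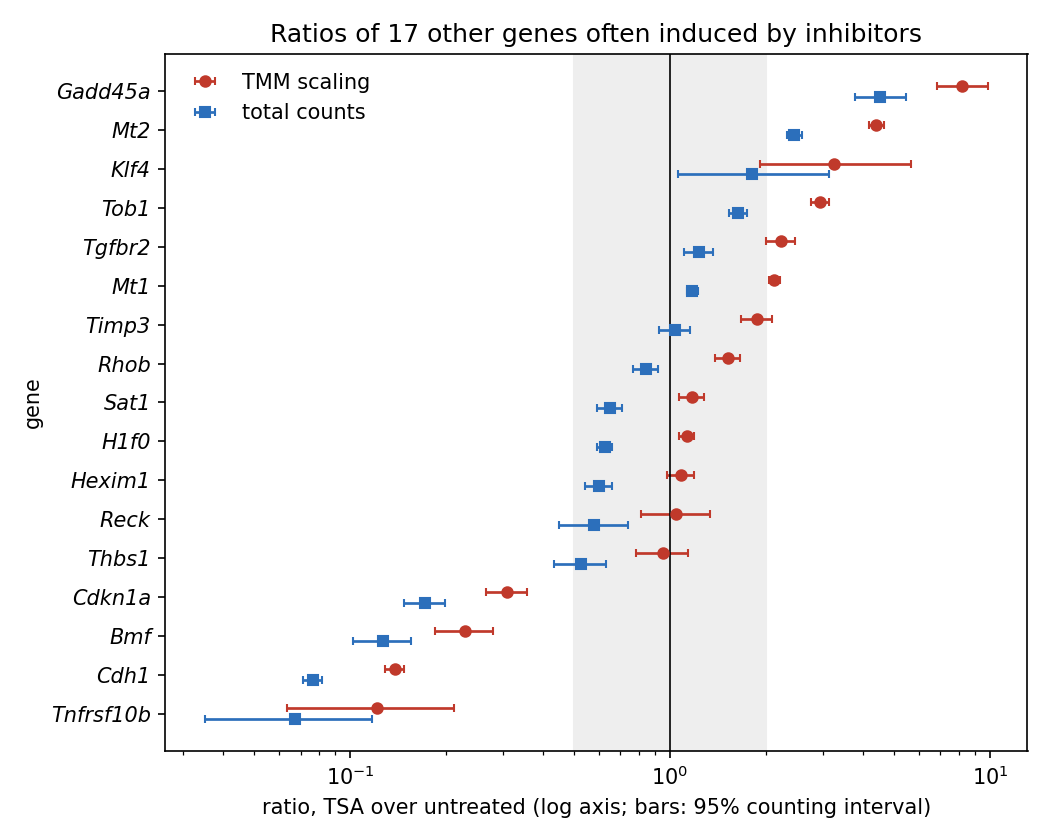
Ratio of TSA over untreated (x axis, log scale) for 17 other genes often induced by deacetylase inhibitors, with TMM scaling (red circles) and with total counts (blue squares), where bars are 95% counting intervals and the grey band spans ratios under 2-fold. *Gadd45a* and *Mt2* lie above the band and *Cdkn1a*, *Bmf*, *Cdh1* and *Tnfrsf10b* below it with both scalings.

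Blood and immune markers complete the check of other cells. All 4 erythroid markers tested were higher, with *Hbb-bs* and *Hba-a1* holding the most counts, and the list summed to 69.4 CPM without treatment and 351 CPM with TSA. Of 9 macrophage and Kupffer cell markers 5 were higher and 1 lower, against 3 and 3 with total counts, and they summed to 480 and 713 CPM, with *Cd5l* and *C1qb* holding the most counts. Neither was called with TMM, and with total counts *Cd5l* was 2.53-fold (2.39 to 2.68) and *C1qb* 2.23-fold (2.06 to 2.42) lower. *Clec4f*, of Kupffer cells, was 44.3-fold (36.3 to 54.5) higher. *Cd68*, the lower one with TMM, went from 1654 to 265 counts and was 3.42-fold lower. It was called lower with total counts as well. *Clec4f* and *Cd68* were named after their values were seen. Of 8 lymphocyte markers 4 were tested and 3 were higher, *Cd79a* among them and *Ptprc* not, with sums of 18.4 and 36.2 CPM. Of 6 cholangiocyte markers 3 were higher, *Spp1* among them, and 2 lower, *Krt7* among them, against 2 and 2 with total counts, and they summed to 49.3 and 50.7 CPM. These calls are with TMM unless stated, none of these lists had a marker at 0 in both libraries, and their part in the ratios above was not tested.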

How the data were processed

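PolyA RNA was sequenced from 2 liver samples, 1 per group, grouped by the treatment label. The authors deposited raw read counts per gene symbol, which are whole and unscaled per the file headers and values, and FPKM. The FPKM values deposited were the same counts over a gene model length and the library's sum: that length came out whole and the same in the pair of libraries (tolerance 0.1 base) for each of 14271 genes with reads in both. The submitters' processing notes name Trimmomatic, HISAT2, Bowtie2 and DESeq, without roles or versions. The build, annotation, counter and strand setting were not given in the sources used here.

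Scaling factors came from the TMM method of edgeR 4.0.16 in R 4.3.3 (1.34 for untreated, 0.744 for TSA). Intervals of ratios are exact conditional binomial (Clopper-Pearson) and those of counts exact Poisson, at 95%, computed with scipy 1.17.1. They cover counting error only, and the files show no molecular identifiers by which copies of a read could be collapsed. Where a library had 0 counts, a floor of 3 counts per library replaced it in bounds and list medians. The calling code was tested on simulated data without variation between animals, which does not bear on how the calls would hold in other animals. Alternatives were total counts, upper quartiles, DESeq2 1.42.0 size factors, FPKM with 0.1 added, other count minimums and thresholds, and a prior count of 2. All 10 genes are named, with the tested genes of the wider list and up to 4 relatives per family by counts plus the one of largest ratio. Of each cell type 2 markers are named by counts. Others are named to complete a count of 5 or fewer, to state which markers were at 0, or because they overlap a gene of the set. A few more were named after their values were seen, where the text says so. The genes and lists were chosen with earlier results of these data known. Motifs were searched on both strands in the 250 bases before each RefSeq start.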

Additional observations from a re-analysis of the deposited data

How the results depend on the processing

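With 3 genes of the set higher and 2 lower, DESeq2 size factors, upper quartiles, other count minimums, a 1.5-fold threshold and an interval bound of at least 2-fold kept both counts within 1.5 times. Total counts gave 2 higher and 4 lower. FPKM with 0.1 added, called by size alone, gave 1 higher and 4 lower, and a 4-fold threshold gave 1 higher and 1 lower. The wider list had 6 genes higher, and 2 under total counts, 2 with FPKM and 2 at 4-fold. Over all genes, 3382 higher and 3573 lower became 2084 and 6339 with total counts, 1983 and 6186 with FPKM, and 1951 and 1649 at 4-fold. Across 45 recomputed ratios of the 9 genes that have one, 0 changed sign and 31 stayed within their counting interval. The lack of sign changes carries little weight. Scaling to total counts lowers every log2 ratio by 0.85, and the lowest positive log2 ratio with TMM was 1.60, that of *Sncg*. FPKM rests on the same counts and library totals, so it is not a separate check. *Syt11*, with 23 and 47 counts, was not tested at a minimum of 100 summed counts. No paired analysis was possible because each group holds 1 library. Leaving out a library was not possible for the same reason. Depth limits *Sncg* and *Stmn3*, for which only large differences could have been seen.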
